A study of Homo sapiens with 9 samples.

Results

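Oncofetal and stem-cell RNA-binding proteins are represented here by 7 genes, IGF2BP1, IGF2BP2, IGF2BP3, ELAVL1, LIN28B, QKI and PUM2, taken by name from the 20848 genes of the deposited tables as RNA-binding partners or rivals of Musashi1. All 7 had a row in the gene and exon count tables, and 6 passed the filter on low counts. IGF2BP1 did not pass it.

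The cells were U251, a human glioblastoma line. Of the 9 samples, 3 were RNA-seq controls titled WT and given the genotype wild type (control), 3 were RNA-seq samples with the genotype Msi1 KD, and 3 were iCLIP samples of cells titled WT. iCLIP maps single nucleotides of RNA crosslinked to a protein by ultraviolet light, and the antibody was against MSI1, the Musashi1 protein. The sources used here do not give how MSI1 was knocked down, what the controls received or whether replicates were separate cultures. A p-value therefore speaks of the scatter among these libraries, part or all of which may be technical.

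The 3 IGF2BP proteins bind mRNAs in the cytoplasm and are known for stabilising and localising them, with IGF2BP1 and IGF2BP3 largely shut off after fetal life and switched on again in tumours. LIN28B blocks the maturation of let-7 microRNAs, small RNAs that repress growth-promoting mRNAs, and is itself a let-7 target. ELAVL1, also called HuR, protects AU-rich mRNAs from decay, QKI acts in splicing and mRNA stability in glia, and PUM2 is a Pumilio repressor that recruits deadenylases. Musashi proteins were first studied in neural stem cells and, like several of these proteins, bind short words in 3′ UTRs.

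The 3′ UTRs of the 7 genes were read first, because they carry the words that connect the genes with each other. All 7 symbols matched a transcript in GENCODE release 29 (GRCh38), and the longest annotated 3′ UTR was used, on the sense strand only. The let-7 family shares a seed, bases 2 to 8 of the mature RNA, shown in capitals in the RefSeq sequence of let-7a. Its match in an mRNA is CTACCTC. The windows below hold each match in LIN28B and the IGF2BP genes, with the match in capitals. That of ELAVL1, counted below, is not shown.
hsa-let-7a-5p: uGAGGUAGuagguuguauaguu
LIN28B copy 1: gcaaagtCTACCTCatgcaag
LIN28B copy 2: atagtaaCTACCTCtgagttt
LIN28B copy 3: caaaaggCTACCTCatagttg
LIN28B copy 4: gtgttgaCTACCTCttgaatc
IGF2BP1 copy 1: aagtaaaCTACCTCaaggtat
IGF2BP1 copy 2: ctagtaaCTACCTCacagagc
IGF2BP1 copy 3: ggattaaCTACCTCaatcctt
IGF2BP1 copy 4: gttttatCTACCTCttagcaa
IGF2BP2: gaagaagCTACCTCaggtgtt
IGF2BP3: tactcaaCTACCTCaggtatt

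LIN28B held 4 let-7 seed matches in a 3′ UTR of 4549 nt. At least 4 were present in 0.204% of the 1469 3′ UTRs of similar length, defined as within 20% of its own, and at least 1 in 23.4%. The gene's own 3′ UTR is counted among those of similar length, here and below. IGF2BP1 also held 4, in 6206 nt, a number reached by 0.593% of 843 3′ UTRs of similar length. IGF2BP2, IGF2BP3 and ELAVL1 each held 1 copy, and at least 1 was present in 10.9%, 12.4% and 24.6% of the 3′ UTRs of similar length to each. QKI and PUM2 held 0. A match describes letters and is no measure of binding or of repression.

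PUM2 stood out by another word. TACATTT was picked in earlier work on these same data, as a word carried by genes that were higher in the knockdown, so its presence in PUM2 is a description and no independent evidence. PUM2 held 5 copies in 2894 nt, and 0.0871% of 2296 3′ UTRs of similar length, its own included, held as many, while 41.2% held at least 1. The copies are shown because no other gene of the set held more than 2, with the word in capitals.
PUM2 copy 1: acaggtgTACATTTgtaaacc
PUM2 copy 2: tttgggaTACATTTgcatttt
PUM2 copy 3: tttagtgTACATTTacgtccc
PUM2 copy 4: cacgatgTACATTTacaagcg
PUM2 copy 5: ccttatgTACATTTcccaaca

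In 4 of the 5 copies the word continued a TG, giving TGTACATTT. Of the 6799 copies of TACATTT in the 3′ UTRs of all 19132 genes with one, 10.2% did so. The longer word was taken from the PUM2 copies themselves, so this comparison is a description and no independent evidence. QKI held 2 copies of TACATTT, IGF2BP3, ELAVL1 and LIN28B held 1 each, and IGF2BP1 and IGF2BP2 held 0. The word GCAGGAA, picked in the same earlier work among genes that were lower in the knockdown, had 3 copies in IGF2BP1, 1 in QKI and 0 in the other 5 genes, IGF2BP2 included.

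Words of the kind that Musashi1 is known to bind were counted as a G or A followed by 1 to 3 T and then AGT, which gives 6 words of which none contains another. QKI had 35 copies against a median of 17 in 3′ UTRs of similar length, and 3.82% of those had as many. LIN28B had 13 copies against a median of 9, and PUM2 had 8 against 5. IGF2BP2 had 1 copy against a median of 3, IGF2BP1 had 6 against 13, and ELAVL1 had 5 against 10. IGF2BP3, with 5 against 4, lay close to its median. The Pumilio word TGTANATA occurred 5 times in QKI, 2 times in PUM2 and 1 time in IGF2BP2, and the QKI word ACTAAC occurred 2 times in each of QKI, LIN28B, IGF2BP2 and IGF2BP3.

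**Figure D1:**
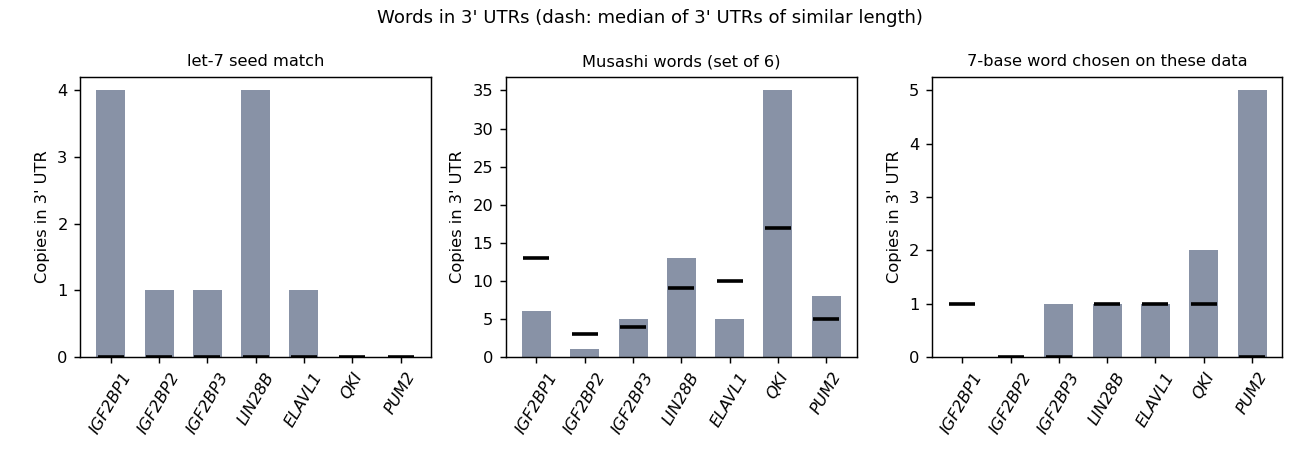
Copies of 3 word sets (y axis) in the longest 3′ UTR of each gene (x axis), with let-7 seed matches on the left, the Musashi words in the middle and the word chosen on these data on the right. The dash is the median of 3′ UTRs of similar length, above which LIN28B and IGF2BP1 stand on the left with 4 copies, QKI in the middle with 35 and PUM2 on the right with 5.

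Each library held between 32919299 and 47277016 gene counts. The first principal component of log2 expression held 62.5% of the variance, with control replicate 3 at 80.6 and the other libraries between -40.9 and 10.4. The cells expressed the glioma markers CD44, VIM and NES at means of 3539, 2511 and 830 CPM, the read count scaled to library size. These were the 3 highest of a list of 12 glioma and astroglial markers. In that list OLIG2 had a count of 0 in every library, and ALDH1L1, S100B and SLC1A3 had means of 0.0086, 1.82 and 17.5 CPM. Of its 10 tested genes 1 was lower with the group alone (1.67% of all genes passed). With the replicate block 3 were higher and 2 lower (17.3% of all genes passed). The leukocyte markers CD3E and ITGAM were at 0, and the summed leukocyte list was at 4.2 to 7.21 CPM in controls and 4.25 to 5.64 in knockdown libraries. The summed endothelial list was at 13.4 to 14.6 CPM in controls and 22.1 to 25.5 in knockdown libraries, nearly all of it from KDR, with PECAM1 near 0. Of its 2 tested genes 1 was higher with the replicate block. The fibroblast and pericyte list summed to 1005 to 1437 CPM in controls and 1119 to 1604 in knockdown libraries, most of it from COL1A2 (mean 1226), with DCN and LUM near 0, and with the replicate block 2 of its 4 tested genes were higher. The neuron list summed to 1036 to 1398 CPM in controls and 1123 to 1429 in knockdown libraries, most of it from NEFL (mean 1219). GAD1, SYT1 and SNAP25 of that list had means of 38.2, 23.3 and 2.93 CPM, and STMN2 was at 0. Of the 4 tested neuron genes 1 was higher with the replicate block. The oligodendrocyte list summed to 56.2 to 121 CPM in controls and 92.6 to 144 in knockdown libraries. Most of that sum came from CNP (mean 108), with MAG at 0. The part of these markers in the results was not tested. Reads of MSI1 numbered 726, 688 and 244 in the controls, in order of replicate number, and 134, 195 and 90 in the knockdown libraries, without overlap. Its log2 fold change was -1.97 ± 0.42 (SE), with an adjusted p of 0.0699 by edgeR's quasi-likelihood test and 0.00279 with the replicate number as a block, and the adjustment here and below is that of Benjamini and Hochberg over the 13856 genes tested. Its paralogue MSI2 differed by -0.01 on that scale.

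In the control cells the 7 genes fell into 5 that were well expressed and a pair of fetal genes that were nearly silent. Levels between genes are given as CPM per kb of exon. IGF2BP2 had the highest level, 58.0 ± 1.26 (SD, n = 3), above 91.3% of the genes tested. IGF2BP3 followed at 33.0 ± 4.76, above 83.5% of them. ELAVL1 at 23.0 ± 2.74, QKI at 21.5 ± 4.11 and PUM2 at 21.4 ± 2.45 came next, and these 3 levels did not differ beyond their spread. LIN28B stood at 0.0371 ± 0.0181 and IGF2BP1 at 0.00907 ± 0.00773, and their ranges over the control libraries overlapped. MSI1 itself lay below the 5 expressed genes, at 4.67 ± 1.84, as did MSI2 at 15.7 ± 2.23. In the exon table MSI2 was not below all 5, at 18.6 against 17.8 for QKI.

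IGF2BP1 (chr17:44429773-44488506, plus strand, 15 exons; hg18 here and below) had 1, 6 and 2 reads in the controls and 1, 4 and 3 in the knockdown libraries. The counts overlapped and stayed near the limit of detection in every library. A fall could not have been detected at this depth, and the filter on low counts left the gene out of the test. It carries 4 of the let-7 seed matches printed above, the same number as LIN28B.

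LIN28B (chr6:105511616-105637899, plus strand, 4 exons) had 13, 9 and 3 reads in the controls and 13, 7 and 16 in the knockdown libraries. Each of these reads lay in the last of its 4 exons, which holds 4918 nt. The groups overlapped, and the log2 fold change of 0.50 ± 0.52 had a 95% interval of -0.72 to 1.72 (adjusted p = 0.752, edgeR). The estimate was 0.83 without control replicate 1, 0.26 without control replicate 3 and 0.28 without knockdown replicate 3. The interval is wide, and a change of the size seen for PUM2 could not have been told from none at this depth. LIN28A, its paralogue, had 4 to 8 reads per library and was not tested.

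IGF2BP2 (chr3:186844221-187025521, minus strand, 16 exons) had less RNA in every knockdown library than in any control. Its reads numbered 9518, 8184 and 7018 in the controls, which became 210, 210 and 218 CPM after normalisation, and 6866, 6312 and 5672 reads in the knockdown replicates, or 161, 166 and 143 CPM. The controls lay close together and the highest knockdown library lay well below them. The mean went from 213 ± 4.63 to 156 ± 12.2 CPM (SD, n = 3), a log2 fold change of -0.45 ± 0.12 (95% interval -0.73 to -0.16). The adjusted p was 0.123 with the group alone and 0.0185 with the replicate block, both by edgeR. In RNA from whole cultures, fewer expressing cells and less RNA per cell cannot be told apart, here or for the other genes. C3orf65 lies within IGF2BP2 on the other strand and had a mean of 7 reads in controls, too few to move these counts.

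IGF2BP3 (chr7:23316353-23476520, minus strand, 15 exons), the fetal paralogue that U251 cells do express, had 134, 119 and 159 CPM in the controls and 148, 144 and 145 in the knockdown libraries. The knockdown values lay close together, inside the range of the controls. Its log2 fold change was 0.09 ± 0.14 (95% interval -0.25 to 0.42; adjusted p = 0.861, edgeR). It was -0.01 without control replicate 2, 0.26 without control replicate 3 and 0.14 without knockdown replicate 1 or 3, so no direction can be given.

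The balance between the expressed IGF2BP paralogues can be read within a library, free of any scaling. It was examined after the values had been seen and is described without a test. Per exonic kb, the reads of IGF2BP2 over those of IGF2BP3 gave ratios of 1.78, 2.00 and 1.56 in the controls and 1.24, 1.30 and 1.11 in the knockdown libraries. The lowest control stayed above the highest knockdown library. The mean log2 ratio differed by -0.54 between the groups, and by between -0.63 and -0.46 when any 1 library was left out.

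ELAVL1 (chr19:7929457-7976529, minus strand, 6 exons) was higher in the knockdown libraries by a small margin. The controls had 158, 136 and 125 CPM and the knockdown libraries 186, 169 and 162, so that the lowest knockdown library was just above the highest control. The log2 fold change was 0.31 ± 0.14 (95% interval -0.02 to 0.63), with an adjusted p of 0.357 with the group alone and 0.0340 with the replicate block by edgeR. Its neuronal paralogues were low or silent. ELAVL2 had 11, 5 and 4 reads in controls and 17, 22 and 16 in the knockdown libraries, without overlap, and its adjusted p was 0.164, or 0.0874 with the block. ELAVL3 had 26 to 89 reads in controls and 75 to 137 in the knockdown, and ELAVL4 had 0 in all 6 libraries.

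QKI (chr6:163755665-163919617, plus strand, 6 exons) had 320, 308 and 430 CPM in the controls and 323, 296 and 354 in the knockdown libraries. In each group the third replicate was the highest, and the groups overlapped. Its log2 fold change of -0.12 ± 0.17 (95% interval -0.51 to 0.27; adjusted p = 0.824, edgeR) became 0.11 when control replicate 3 was left out. It was -0.19 or -0.21 without control replicate 1 or 2, and -0.05 or -0.06 without knockdown replicate 1 or 2. The QKI gene makes proteins with different tails from alternative last exons, but the annotation of the deposited exon table merges these into 1 last exon of 15176 nt, so these forms were not told apart.

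PUM2 (chr2:20311934-20390625, minus strand, 20 exons) was higher in every knockdown library than in any control. The controls had 5579, 4700 and 4752 reads, or 123, 121 and 148 CPM, and the knockdown libraries 8939, 6713 and 9514 reads, or 210, 176 and 239 CPM. The lowest knockdown library had 176 CPM and the highest control 148. The log2 fold change was 0.67 ± 0.16 (95% interval 0.30 to 1.05), a 1.59-fold difference. The adjusted p was 0.0908 with the group alone, 0.00499 with the replicate block and 0.00817 without control replicate 3 by edgeR, and 0.0393 by DESeq2. With any other library left out it was between 0.202 and 0.313, and with DESeq2 size factors 0.105, by edgeR. Without control replicate 3, 7.31% of all genes tested passed.

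Read over the set, 0 of the 6 tested genes passed an adjusted p of 0.05 with the group alone, where 1.67% of all genes tested did (232 of 13856, with 0.772% higher and 0.902% lower). The unadjusted p was below 0.05 for IGF2BP2 (0.00692) and PUM2 (0.00368), as for 15.5% of all genes tested. DESeq2 called 1, PUM2, and 5.06% of all genes (715 of 14122). With the replicate block 3 passed, PUM2 and ELAVL1 higher and IGF2BP2 lower, where 17.3% of all genes did (7.04% higher and 10.3% lower). The same 3 were the genes whose groups did not overlap, where the groups of 22.8% of all genes tested did not overlap. The genes are few and were named with earlier results known, so nothing further is read from these counts.

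**Figure D2:**
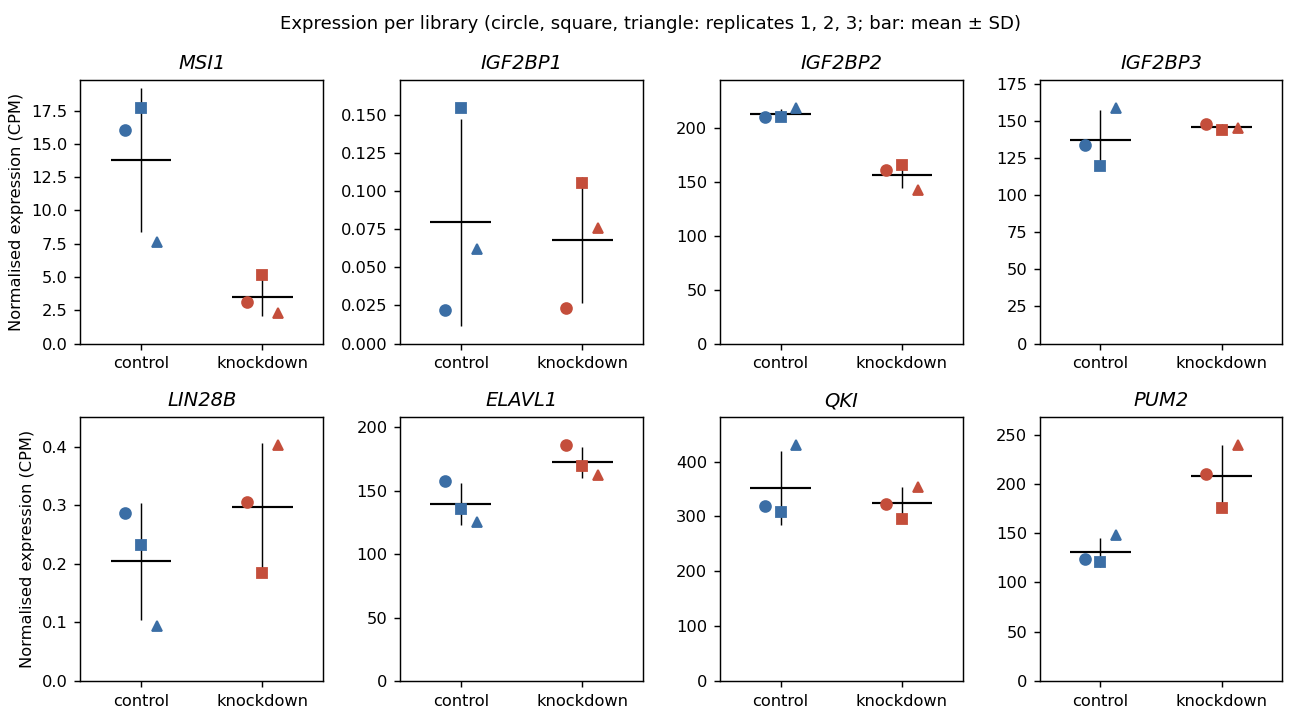
Normalised expression in CPM (y axis, from 0, with its own scale in each panel) of MSI1 and the 7 genes in the 3 control and 3 knockdown libraries (x axis), with replicates 1, 2 and 3 as circle, square and triangle and the bar and line giving mean and SD. The groups are apart for MSI1, IGF2BP2, ELAVL1 and PUM2, and IGF2BP1 and LIN28B lie below 0.5 CPM in every library.

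**Figure D3:**
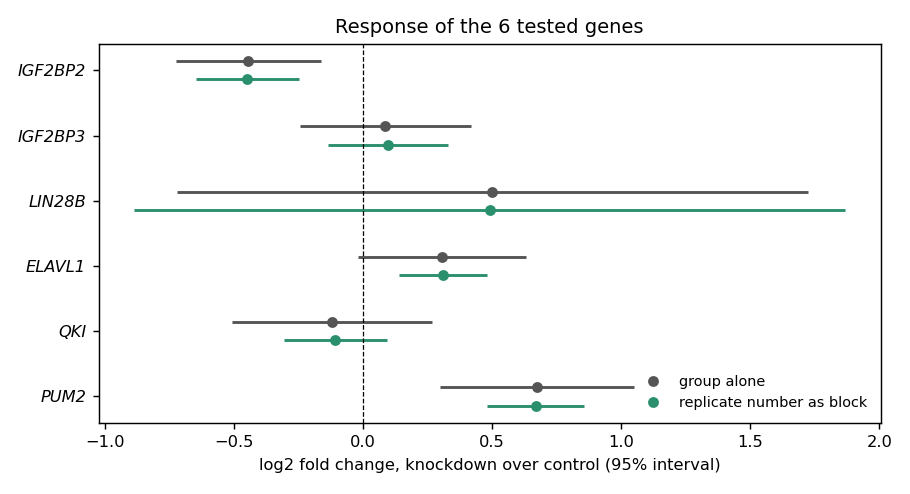
Log2 fold change of knockdown over control (x axis) with its 95% interval for the 6 tested genes (y axis), with the group alone in grey and with the replicate number as a block in green. The estimates hardly move with the block while the intervals narrow for all but LIN28B, and that of ELAVL1 leaves 0 only with the block.

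**Figure D4:**
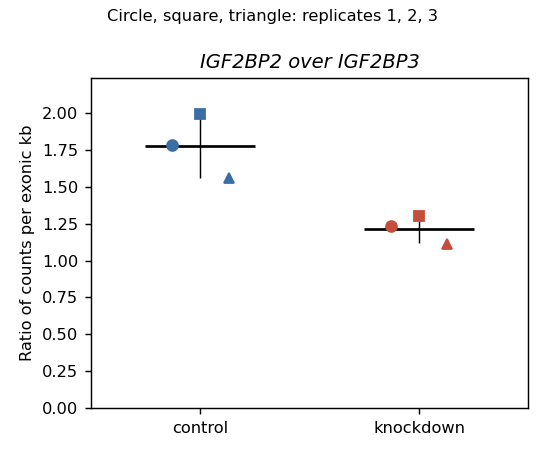
Ratio of reads per exonic kb (y axis, from 0) of IGF2BP2 over IGF2BP3 in each library (x axis), with replicates 1, 2 and 3 as circle, square and triangle and mean and SD as bar and line. The ratio goes from 1.78 to 1.22 in the means, with no overlap of the groups.

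Exon counts were used to ask whether any part of these transcripts changed relative to the rest. Of the 123109 exons tested, 63 belonged to 5 of the genes, and the exons of IGF2BP1 and LIN28B were too low to test. The exon test called 0 of the 63 (0.00% of all exons tested were called), and 0 had an unadjusted p below 0.05, against 263 of all exons (0.214%). A share so far below that threshold marks a strict test, so these 0 calls do not show that no exon changed. With the block 0.00812% of all exons were called and 0 of the 63, of which 1 had an unadjusted p below 0.05. Over all exons 1.96% had such a p (2415), so 1 of 63 is near the background. That exon was number 5 of IGF2BP3, 64 nt long (chr7:23367678-23367741), which held 1.22, 1.40 and 1.62% of the gene's exon reads in the controls and 0.770, 1.10 and 1.03% in the knockdown libraries. By diffSpliceDGE of edgeR, fitted across all exons, its p with the block was 0.0242 before adjustment and 1 after it.

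The last exons, which hold the 3′ UTRs, showed no difference in share beyond the spread of the controls. PUM2's last exon, 3025 nt, held 39.2 ± 3.43% of its exon reads in controls and 40.3 ± 2.59% in the knockdown (SD, n = 3). That of IGF2BP2 held 41.9 ± 4.71 and 42.3 ± 2.75%. For IGF2BP3 the shares were 52.3 ± 4.80 and 51.8 ± 2.77%, for ELAVL1 64.3 ± 3.09 and 65.1 ± 2.18%, and for QKI 79.1 ± 3.02 and 78.5 ± 0.938%. All 5 differences were smaller than the SD of the controls. In each of the 5 genes control replicate 3 had the highest share of the controls, which widens that SD. A shift smaller than that SD would not have been seen. Of the 63 tested exons, 60 had shares that overlapped between the groups. The other 3 were exon 5 of IGF2BP3 and, in IGF2BP2, exon 9 (means of 7.48 and 6.49%, unadjusted p = 0.474) and exon 15 (5.57 and 5.36%, 0.855), by diffSpliceDGE of edgeR. How often shares do not overlap over all exons tested was not computed, so nothing is read from these 3.

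MSI1 iCLIP placed sites on all 7 genes. The lists of replicates 1, 2 and 3 held 1746795, 145718 and 208722 sites, so counts are compared within a list only, and they are not corrected for expression or gene length. QKI had 1025, 104 and 167 sites on its sense strand, more than 98.4, 98.8 and 99.0% of the genes with any site in lists 1, 2 and 3. IGF2BP2 had 984, 60 and 77 sites, IGF2BP3 had 517, 47 and 59, PUM2 had 258, 33 and 52, and ELAVL1 had 234, 9 and 20. The near-silent IGF2BP1 had 2, 4 and 1 and LIN28B 4, 1 and 3, all in introns. Antisense sites on the 5 expressed genes numbered at most 11 in a list.

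Where the sites fell differed among the genes. In ELAVL1, 22.6, 33.3 and 80.0% of the sense sites of lists 1, 2 and 3 lay in exons (exact 95% intervals 17.5 to 28.6, 7.49 to 70.1 and 56.3 to 94.3%, for counting error only), against 14.1, 20.4 and 26.4% over all genes. The last exon held 51 of its 53 exonic sites in list 1, 3 of 3 in list 2 and 16 of 16 in list 3. QKI had 15.6, 23.1 and 31.7% in exons (13.4 to 18.0, 15.4 to 32.4 and 24.8 to 39.4%). Of these exonic sites 152 of 160, 21 of 24 and 51 of 53 lay in its merged last exon of 15176 nt. The exonic share, sites per kb and level per kb of QKI depend on that merged annotation. IGF2BP2 had 2.24, 1.67 and 5.19% (1.41 to 3.37, 0.0422 to 8.94 and 1.43 to 12.8%), and IGF2BP3 had 1.93, 4.26 and 8.47% (0.931 to 3.53, 0.520 to 14.5 and 2.81 to 18.7%). PUM2 had 16.7, 21.2 and 7.69% (12.3 to 21.8, 8.98 to 38.9 and 2.14 to 18.5%), above the share over all genes in lists 1 and 2 and below it in list 3.

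Introns and exons differ in length, so the sites were also counted per kb. ELAVL1 had 8.75 sites per kb of exon and 4.41 per kb of intron in list 1. Lists 2 and 3 had 0.495 against 0.146 and 2.64 against 0.0975. QKI had 9.78 against 5.86 in list 1, 1.47 against 0.542 in list 2 and 3.24 against 0.772 in list 3. For IGF2BP2 the exons and introns were close in lists 1 and 2, with 5.99 against 5.42 and 0.272 against 0.332, and list 3 had 1.09 against 0.411. PUM2 had 7.04 against 2.96 in list 1, and 0.655 against 0.661 in list 3. IGF2BP2 has 178 kb of intron and 3.67 kb of exon, and ELAVL1 has 41.0 and 6.06 kb.

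**Figure D5:**
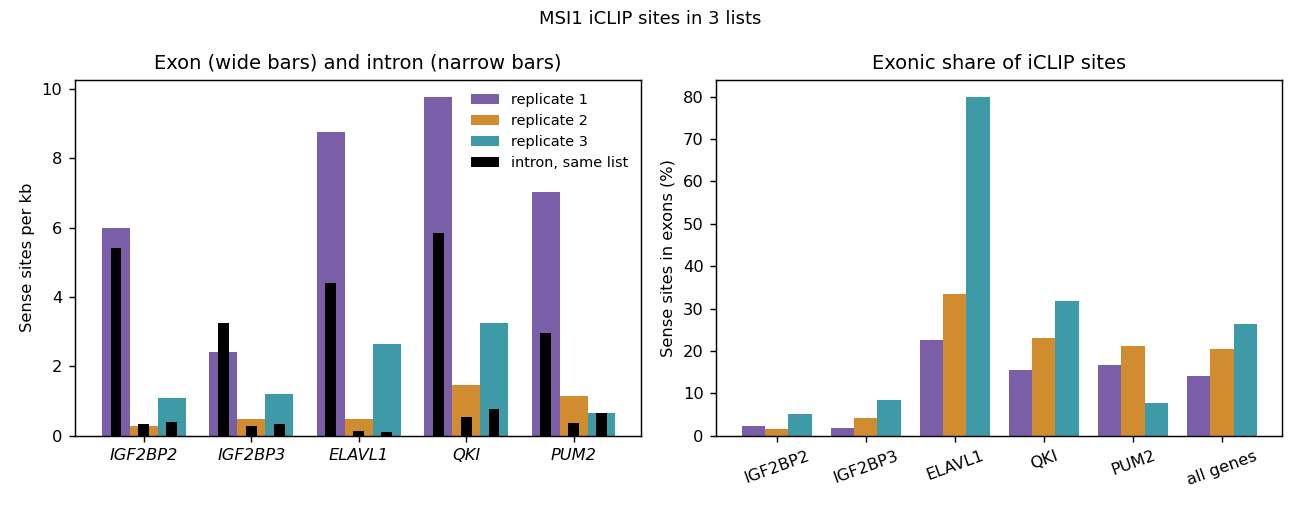
Left, MSI1 iCLIP sites per kb (y axis) on the sense strand of the 5 expressed genes (x axis) in the lists of replicates 1, 2 and 3, with exons as wide coloured bars and introns as narrow black bars. Right, the percentage of sense sites that lie in exons, beside that over all genes, which is highest for ELAVL1 at 80.0% in list 3 and lowest for IGF2BP2 at 1.67% in list 2.

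The lists agreed on few positions. Only 1 nucleotide of the 7 genes was in all 3 lists, chr6:163761171 in the first intron of QKI, 4814 nt from the nearest exon. The authors' p-values there were 0.863, 0.892 and 0.665 in lists 1, 2 and 3. Over all genes 3298 positions were in all 3 lists, 58.5% of them in exons. Allowing 2 nt between lists gave 3 shared positions, in IGF2BP2, ELAVL1 and QKI, that of ELAVL1 in its last exon at chr19:7933980. In at least 2 of the 3 lists there were 41 positions, of which 14 were in QKI, 11 in IGF2BP2, 6 in ELAVL1, 5 in PUM2, 3 in IGF2BP3 and 1 each in IGF2BP1 and LIN28B. Limiting each list to the authors' p of at most 0.05 left 0 shared positions. In QKI a run of 3 adjacent nucleotides of the last exon, chr6:163911918-163911920, was in lists 1 and 3. The authors' p-values there were 0.886, 0.645 and 0.572 in list 3 and higher still in list 1.

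The lists of related RNA-binding proteins and of known client transcripts place the 7 genes among their neighbours. They were drawn up with earlier results of these data known and are described by counts. Of 39 tested RNA-binding proteins related by family or function, 0 passed with the group alone, and the groups of 9 did not overlap (23.1%, near the 22.8% of all genes). Their median log2 fold change was -0.19, against -0.04 over all genes tested. With the block 1 rose and 5 fell. Here and for the lists that follow, the block called 17.3% of all genes tested, 7.04% higher and 10.3% lower, and counts near those shares say nothing about a list. FXR1, a relative of the fragile X protein, had 192 ± 34.9 CPM in controls and 313 ± 40.2 in the knockdown (block adjusted p = 0.00409, edgeR), a difference of the size of that of PUM2. CELF1, which promotes deadenylation at GU-rich words, had 487 ± 25.1 and 342 ± 10.7 CPM (block adjusted p = 0.00695, edgeR), and STAU1, which binds double-stranded RNA, 174 ± 8.60 and 126 ± 8.98 (0.0110). CELF2, RBFOX2 (listed as RBM9) and FMR1 were the others that fell with the block.

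Of 20 tested transcripts known as IGF2BP clients, 0 passed with the group alone and, with the block, 5 rose and 2 fell, with a median log2 fold change of -0.02. The secreted matrix protein TGFBI had 495 ± 100 CPM in controls and 804 ± 92.6 in the knockdown (adjusted p = 0.110, or 0.00573 with the block, edgeR). The cell cycle kinase CDK6 had a log2 fold change of 0.55 (block adjusted p = 0.0231), CTGF one of 0.31 (0.0374), and the deacetylase SIRT1 one of -0.71 (0.0281), which was -0.31 without control replicate 3 (adjusted p = 0.423, edgeR). Of 21 tested genes of the LIN28 and let-7 axis, 0 passed with the group alone, and with the block 3 rose and 3 fell, at a median of -0.11. ARID3B, a known let-7 target, had 25.7 ± 3.40 and 14.7 ± 2.84 CPM, with a log2 fold change of -0.81 (block adjusted p = 0.0298). E2F2 had one of -0.78 (0.0180), and IRS2, an insulin receptor substrate, one of 0.74 (0.0149). CDK6 stands in both lists. The client lists share further genes, among them SIRT1 (IGF2BP and ELAVL1), FN1 (IGF2BP and QKI) and CDKN1B (ELAVL1, QKI and Pumilio). A call can therefore count for several lists.

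Of 24 tested ELAVL1 clients, 0 rose and 1 fell with the group alone, and with the block 1 rose and 7 fell, at a median of -0.25. XIAP, an inhibitor of caspases, was the one that fell, with 137 ± 25.8 CPM in controls and 63.3 ± 6.82 in the knockdown. Its log2 fold change was -1.11 ± 0.18, at an adjusted p of 0.0336 by edgeR. Its adjusted p was 0.0504 with DESeq2 size factors in edgeR and between 0.0992 and 0.244 when control replicate 1 or 2 or any knockdown replicate was left out. For the matrix protein THBS1 the log2 fold change was -1.18 (adjusted p = 0.0583, block 0.00128), the urokinase receptor PLAUR one of 0.85 (block 0.00818) and the cyclin CCNE1 one of -0.53 (block 0.0361), all by edgeR.

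Of 17 tested QKI clients, 0 rose and 1 fell with the group alone, and with the block 0 rose and 4 fell, at a median of -0.18. MAP1B, a microtubule protein of neurons and glia whose mRNA QKI is known to stabilise, fell, with 2758 ± 115 CPM in controls and 1694 ± 123 in the knockdown. Its log2 fold change was -0.70 ± 0.12, at an adjusted p of 0.0391 by edgeR. Its adjusted p was 0.0525 with DESeq2 size factors and 0.0577 without the filter on low counts, and between 0.127 and 0.231 when control replicate 1 or 2 or any knockdown replicate was left out. FOXO1, a transcription factor that QKI is known to repress, had a log2 fold change of -0.85 (block adjusted p = 0.00765), the kinesin KIF13A one of -0.27 (0.0472), and FN1 one of 0.28 (0.0628).

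Of 24 tested Pumilio clients and co-repressors, 0 passed with the group alone, and with the block 1 rose and 3 fell, at a median of -0.17. These 4 of 24 are near the background. ATXN1, a known Pumilio target, had 82.6 ± 2.92 and 61.4 ± 3.03 CPM, without overlap (log2 fold change -0.43, block adjusted p = 0.0197, edgeR). Of the CCR4-NOT deadenylase subunits that Pumilio proteins recruit, CNOT6 had a log2 fold change of 0.49 (block adjusted p = 0.0118) and its paralogue CNOT6L one of -0.48 (0.0244), with groups that overlapped. Without control replicate 3 they were 0.74 and -0.20. CDKN1B, the cell cycle inhibitor p27, had one of -0.35 (0.123), which did not pass, and of -0.16 without control replicate 3.

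Over the 6 libraries, the genes whose log2 CPM followed a gene of the set most closely were found among genes with a mean log2 CPM of at least 2. For IGF2BP2 these were USP30 (Pearson r = 0.992) and PRDM1 (0.989), and for ELAVL1 DKK3 (0.994) and SUMO3 (0.993). QKI was followed by ZNF605 (0.999) and PCNP (0.998), IGF2BP3 by INPP5F (0.981) and NSUN6 (0.974), and LIN28B by DCAF4 (0.937) and DNAJC8 (0.895). The 6 points share 2 groups and 1 library that stands apart. Above 0.95 were 793 genes for QKI, 222 for PUM2, 80 for IGF2BP2, 52 for ELAVL1, 17 for IGF2BP3 and 0 for LIN28B, so for QKI, PUM2 and IGF2BP2 the names are a few of many.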

How the data were processed

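RNA-seq was compared between 3 control and 3 MSI1 knockdown samples of U251 cells, with groups and replicate numbers from the sample titles, and iCLIP sites were described in 3 samples. For RNA-seq the deposited files hold raw read counts, for 20848 genes and for 206550 exons. They also deposited lists of single-nucleotide iCLIP sites, each with a strand and the authors' p-value, which reaches 1, so the lists are not limited to low values. Per the submitters' processing notes the build is hg18. The sources used here do not give the aligner, counter, strand setting or site caller, so reads of antisense partners cannot be told apart. The RNA-seq samples carry the iCLIP protocol text, in which replicates are pooled before sequencing, although each replicate has its own file.

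Gene counts were tested with edgeR 4.0.16 in R 4.3.3 (quasi-likelihood test, TMM normalisation, filterByExpr with a minimum count of 10, group as the only term, 4 residual degrees of freedom, Benjamini-Hochberg adjusted p below 0.05). Fold changes are on the log2 scale with SE and 95% intervals, and CPM uses TMM library sizes. Exons were tested with diffSpliceDGE, with its coefficients converted from natural logarithms to log2. Alternatives were the replicate number as a block, DESeq2 1.42.0, its size factors in edgeR, other filters and leaving out each library. After removal of group means, libraries of the same number had correlations of 0.318, 0.732 and 0.751, all above 0.1, so these numbers, given in the titles, were treated as pairs. Control replicate 1 correlated more with knockdown replicate 2 (0.494). Every pair of libraries differed beyond sampling noise, with a chi-square per gene of at least 22.7.

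In simulated data over 13711 genes, the gene test recovered 93.9% of 4-fold and 28.3% of 2-fold changes with 9 false calls. These gene counts were drawn independently around a common mean, with no library standing apart, so this recovery does not carry over to the real genes. MSI1, at a fold of 0.254, had an adjusted p of 0.0699 with the group alone by edgeR. In simulated data over 18715 exons, the exon test recovered 100% of 4-fold changes with 19 false calls. These exons were well covered, with a single fixed dispersion and no library standing apart. The recovery therefore does not carry over to the real exons.

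iCLIP sites were assigned to exons by the deposited exon tables, and a position counted as shared if all 3 lists held it on the same strand. No genome of the files' build was used, so no sequence at a site is shown. 3′ UTRs came from GENCODE release 29 (GRCh38) by symbol, without coordinates, and let-7a from RefSeq (GRCh38.p14). The rule for named genes takes the 7 genes, MSI1 and MSI2, up to 4 genes of each list by adjusted p, the 2 closest genes by Pearson r, the exon with the lowest p and the last exon of each gene, and shared iCLIP sites. ELAVL3, ELAVL4, LIN28A, CELF2, RBFOX2, FMR1 and the marker genes fall outside it and were named after their values were seen. Some genes that the rule names are not reported here. The genes and lists were chosen with earlier results of these data known.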

Additional observations from a re-analysis of the deposited data

How the results depend on the processing

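The count of the 6 tested genes that passed, 0 with the group alone, was 3 with the replicate block, 3 with the block and DESeq2 size factors (an alternative added after seeing the data), 1 with DESeq2 and between 0 and 1 when any 1 library was left out, the 1 being PUM2 without control replicate 3. With the block and replicate number 1, 2 or 3 left out, it was between 2 and 4. The calls over the client and related lists, 2 with the group alone, numbered 33 with the block, 34 with the block and DESeq2 size factors, 10 with DESeq2, 0 with DESeq2 size factors in edgeR, 1 without the filter on low counts, and between 0 and 18 when any 1 library was left out, the 18 being without control replicate 3. With the block and number 1, 2 or 3 left out they numbered 39 of 133, 13 of 131 and 51 of 132 tested genes. The lists held 130 tested genes with the group alone and with the block. Over all genes tested the group alone called 232 (1.67%). The settings that follow it above, in the same order, called 2398 (17.3%), 2278 (16.4%), 715 (5.06%), 191 (1.38%) and 202 (1.15%). With 1 library left out between 0 and 1028 genes were called, the 1028 (7.31%) being without control replicate 3. With the block and number 1, 2 or 3 left out 3322, 1042 and 4456 were called (23.9, 7.52 and 31.8%).

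Directions held for IGF2BP2, ELAVL1 and PUM2 in all 15 alternatives, over which their adjusted p ranged from 0.000309 to 0.504, from 0.000209 to 0.714 and from 2.04e-17 to 0.313 by edgeR or DESeq2. The lowest value of each came from the block without replicate 3, a smaller fit in which 31.8% of all genes tested passed. With the block on all libraries the values were 0.0185, 0.0340 and 0.00499 by edgeR. IGF2BP3 turned to -0.0072 without control replicate 2, QKI to 0.11 without control replicate 3 (range -0.21 to 0.11 over single libraries) and to 0.028 with the block without replicate 3, and LIN28B to -0.029 with the block without replicate 3. IGF2BP3 passed only with the block without replicate 3 (0.26). Leaving out 1 library, the log2 change of an exon against its gene ranged over both signs for exon 1 of IGF2BP2 (-0.059 to 0.63), exon 16 of IGF2BP2 (-0.056 to 0.11), exon 15 of IGF2BP3 (-0.082 to 0.057), exon 6 of ELAVL1 (-0.0060 to 0.056), exon 6 of QKI (-0.037 to 0.022), exon 8 of PUM2 (-0.039 to 0.55) and exon 20 of PUM2 (-0.016 to 0.12), and 0 of these exons passed in any of these fits. Positions shared between iCLIP lists, 1 in all 3, were 0 at the authors' p of at most 0.05 and of at most 0.001, 3 within 2 nt, 41 in at least 2 of 3 lists and between 5 and 28 with 1 list left out. The control level of ELAVL1 was 20.1 CPM per kb from the exon table, more than 1 SD below that from the gene table. The other 6 levels moved by less than 1 SD of their own controls. The cause of these shifts was not tested, apart from the fewer samples or lists that some alternatives hold. Depth limits LIN28B and IGF2BP1, with at most 16 reads in any library.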
